A study of Homo sapiens with 4 samples.

Results

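The small-subunit processome is the large particle that forms on nascent pre-rRNA in the nucleolus, and the genes described here are UTP14A and 39 others that encode its proteins or proteins acting on the 40S precursor soon afterwards. Members were the rows whose gene symbol stood in a list of 40 names, so they were 40 of the 15357 genes in the table, and all 40 passed the filter on low counts that left 11955 genes for testing. RNA-seq was performed in RKO cells, a human colon cancer cell line, with 2 control samples that carried a lentiviral vector with control shRNA and 2 samples that stably expressed shCHD7_2, a short hairpin RNA against the chromatin remodeller CHD7. Oligo-dT beads had captured the RNA, and the values therefore describe polyadenylated mRNA and not the rRNA on which these proteins act. UTP14A was picked as the starting point because it fell in these same samples, so its own change is given as a description without a test, and the question put to the data was whether the fall extended to the other 39 genes.

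In a growing cell, RNA polymerase I makes 1 long precursor from which 18S rRNA must be cut. The UTP-A and UTP-B subcomplexes and the U3 snoRNP, a small nucleolar ribonucleoprotein whose RNA pairs with the precursor, assemble on it in turn, and further GTPases, nucleases and helicases carry out the cleavages. UTP14 stays until a late step, when it activates the helicase DHX37 to strip U3 RNA from the 18S sequence. Cancer cells are known for high production of ribosomes, and a block in the process can stabilise p53.

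CHD7, the target of the hairpin, measured 85.4 and 91.0 CPM (counts scaled to a common library size with TMM, which corrects for differences in composition) in the controls, against 55.5 and 50.1 CPM in the shCHD7_2 samples. The hairpin samples kept 59.9% of the control level (log2 fold change -0.74, SE 0.088, adjusted p = 4.2e-06 by the quasi-likelihood test of edgeR), and a single hairpin in a single cell line was sequenced. Library totals lay between 15734679 and 16068650 counts. Of the 10 colon epithelium markers checked, EPCAM, KRT8, KRT18 and CDX2 were present in all 4 samples, CDH1, KRT20, CDH17 and LGALS4 had at most 1 count, and CDX1 and VIL1 were not listed. The summed level of the colon markers was 113.2 to 122.8 CPM in the control samples and 121.1 to 135.2 CPM in the shCHD7_2 samples, while fibroblast, leukocyte and endothelium markers summed to at most 0.444 CPM in any sample.

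UTP14A lies on chromosome X of GRCh38 from 129906121 to 129929761 on the plus strand and has 15 exons in GENCODE 29. The controls held 650 and 699 counts of it, against 408 and 397 in the shCHD7_2 samples. On the CPM scale these were 41.9 and 44.3 against 25.4 and 24.9, so both shCHD7_2 samples lay far below both control samples. The log2 fold change was -0.78 (standard error 0.096, 95% interval -0.97 to -0.58 from edgeR), which left 58.4% of the control level, and 107 of the 11955 genes tested had a lower value. UTP14A was chosen for its fall, so this interval describes the spread between these samples and is not read as a test. In bulk RNA, fewer cells expressing a gene and less RNA per cell cannot be told apart.

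UTP14C encodes the closest relative of UTP14A and derives from a reverse-transcribed copy of its mRNA. It lies on chromosome 13 from 52024691 to 52033600, has 2 exons, and overlaps exons of ALG11 on the same strand. The longest mRNAs of the pair were 94.5% identical over 2453 aligned bases. Only 11.9% of the 50-base windows of UTP14A occurred in UTP14C, so most windows of that length tell UTP14A from UTP14C. Other genes were not searched for these windows. Counts of UTP14A were whole numbers in all 4 samples, while those of UTP14C were not, as when reads are divided between genes, and its values are therefore less certain. UTP14C measured 25.5 and 27.8 CPM in the controls, against 29.4 and 28.0 CPM in the shCHD7_2 samples (log2 fold change 0.11, SE 0.10, 95% interval -0.10 to 0.32, edgeR adjusted p = 0.549). Its shCHD7_2 samples were slightly above its control samples, and the fall of UTP14A was not seen in it.

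FPKM values, which are scaled for length, allow the levels of the pair to be compared. UTP14A stood at 17.14 and 18.05 FPKM in the controls and at 10.7 and 10.37 FPKM in the shCHD7_2 samples. UTP14C stood at 4.69 and 5.1 FPKM against 5.58 and 5.27 FPKM. UTP14A was thus the more abundant mRNA in all 4 samples, and its share of the summed level was 78.2% ± 0.386 (SD, n = 2) among controls against 66.0% ± 0.410 (SD, n = 2) among shCHD7_2 samples. The summed level was 22.5 ± 0.933 FPKM (SD, n = 2) and 16.0 ± 0.453 FPKM (SD, n = 2), respectively. The counts of both genes were also added into 1 row, a setting chosen after the data were seen. The log2 fold change of this row was -0.37 (standard error 0.087, 95% interval -0.55 to -0.19 from edgeR), closer to 0 than that of UTP14A by more than 1.5 times. Counts are not scaled for length, and the transcript was 5529 bases long for UTP14C and 2488 for UTP14A. UTP14C therefore weighs more in this row than in the FPKM sum. The row holds UTP14A, so its interval is likewise a description.

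**Figure D1:**
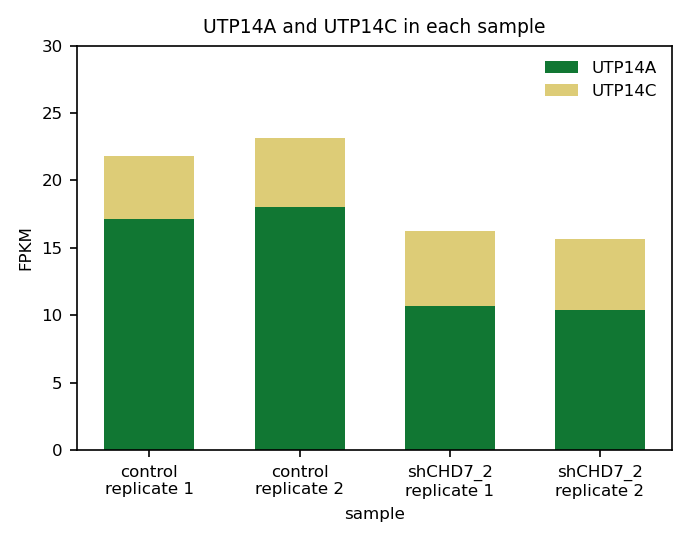
Stacked bars give the FPKM of UTP14A (lower part) and UTP14C (upper part) in each of the 4 samples. UTP14A is at 17.14 and 18.05 FPKM in the control samples and at 10.7 and 10.37 FPKM in the shCHD7_2 samples, while the UTP14C part stays between 4.69 and 5.58 FPKM.

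DHX37, the helicase that UTP14A activates, measured 38.6 and 35.2 CPM in the controls, against 33.1 and 34.5 CPM in the shCHD7_2 samples. The groups did not overlap, but the distance was small, with a log2 fold change of -0.13 (standard error 0.096, 95% interval -0.33 to 0.070, adjusted p = 0.435 from edgeR). Per length, the ratio of UTP14A to DHX37 mRNA was 1.95 and 2.27 in the controls, against 1.38 and 1.30 in the shCHD7_2 samples, so UTP14A remained the more abundant of the pair.

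The start regions of UTP14A and UTP14C are shown because they differ in composition and in the motifs that many members share. Both are read on the plus strand from RefSeq on GRCh38.p14 and run from 250 bases before the annotated start to 30 bases after it, at chrX:129905914-129906193 and chr13:52024441-52024720. Capitals mark CACGTG, the E-box read by MYC and related proteins, and TCGCGA, a palindrome found in many CpG island promoters.
UTP14A: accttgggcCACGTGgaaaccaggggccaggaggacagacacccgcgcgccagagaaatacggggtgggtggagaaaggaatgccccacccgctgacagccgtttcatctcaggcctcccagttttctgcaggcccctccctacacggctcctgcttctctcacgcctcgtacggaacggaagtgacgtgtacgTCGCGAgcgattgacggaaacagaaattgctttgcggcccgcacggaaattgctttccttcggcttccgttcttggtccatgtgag
UTP14C: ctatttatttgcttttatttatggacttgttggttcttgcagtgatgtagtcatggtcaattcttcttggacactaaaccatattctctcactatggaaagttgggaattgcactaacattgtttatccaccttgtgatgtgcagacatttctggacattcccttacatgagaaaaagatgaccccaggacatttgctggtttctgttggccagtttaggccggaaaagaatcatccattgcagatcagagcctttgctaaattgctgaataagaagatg
The UTP14A stretch has a G+C content of 59.6% and 23 CpG pairs, and the UTP14C stretch has 39.3% and 1 CpG pair. The UTP14C stretch lies inside ALG11, which spans chr13:52012398-52032171 on the same strand. Whether it acts as a promoter of UTP14C was not tested.

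Promoters of 300 bases (250 before and 50 after the start) were matched for 36 of the 40 members. CACGTG was present in 18 of these 36 (50%), against 7.26% of all 35116 RefSeq promoters and 9.71% of the 12105 promoters of genes in the table. The motif TCGCGA was in 19.4% of the members' promoters and 5.3% of those of the table, and CCGGAAG, a core motif of ETS factors, was in 36.1% and 17.4%. CAGCTG, the E-box variant read by TFAP4, was in 22.2% and 17.5%. All were searched on both strands, no marked motif overlaps another in the stretches printed here, and a match says nothing about whether a factor was bound. Apart from UTP14A, the log2 fold change had a median of -0.0086 in the 17 members with CACGTG (7 above 0, 10 below) and of -0.035 in the 18 without it (8 above 0, 10 below).

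None of the other members was lower past the test. At an adjusted p under 0.05, 3 of the other 39 members (7.69%) passed the test and all 3 were higher in the shCHD7_2 samples, namely RCL1, PWP2 and TBL3, while 0 were lower. Over all 11955 genes the same threshold was passed by 1373 genes (11.5%), of which 591 (4.94%) were higher and 782 (6.54%) lower. The members' share was thus above that of all genes for higher values and below it for lower values, on counts of 3 and 0, and these differences in share were not tested. With library totals in place of TMM, the split over all genes turned to 878 higher and 608 lower, and with limma on log2(FPKM + 1) it was 674 higher and 468 lower. When a fold change of at least 1.5 was also required, 0 of the 39 members were called, against 344 of all genes tested (2.88%), of which 164 (1.37%) were lower, and DESeq2 likewise called 0.

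At an unadjusted p under 0.05 in edgeR, 4 of the 39 were higher (RCL1, PWP2, TBL3 and NOL6) and 1 was lower (NOP58). The log2 fold changes of the 39 had a median of -0.0086, beside 0.00056 for all genes tested, with 17 above 0 and 22 below. This split was 23 and 16 with library totals and 24 and 15 in limma on log2(FPKM + 1), because 6 and 7 members with values within 0.045 of 0 turned positive. The median without control replicate 1 was -0.055 and without control replicate 2 was 0.048, so its sign depended on single libraries. The middle 50% of values ran from -0.054 to 0.11. Their median absolute log2 fold change was 0.075, beside 0.13 for all genes tested. Samples of the groups did not overlap for 19 of the 39 members, 10 with higher and 9 with lower shCHD7_2 samples, against 53.7% of all genes tested.

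The 95% intervals of the 39 members had half-widths of 0.15 to 0.22 on the log2 scale. The lowest bound reached by any of them was -0.34, for NOP58. A decrease by 0.58 on the log2 scale, which is the fold threshold of 1.5, therefore lay outside the interval of each of the 39 members, whereas small changes within these intervals were not detectable with 2 samples per group.

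**Figure D2:**
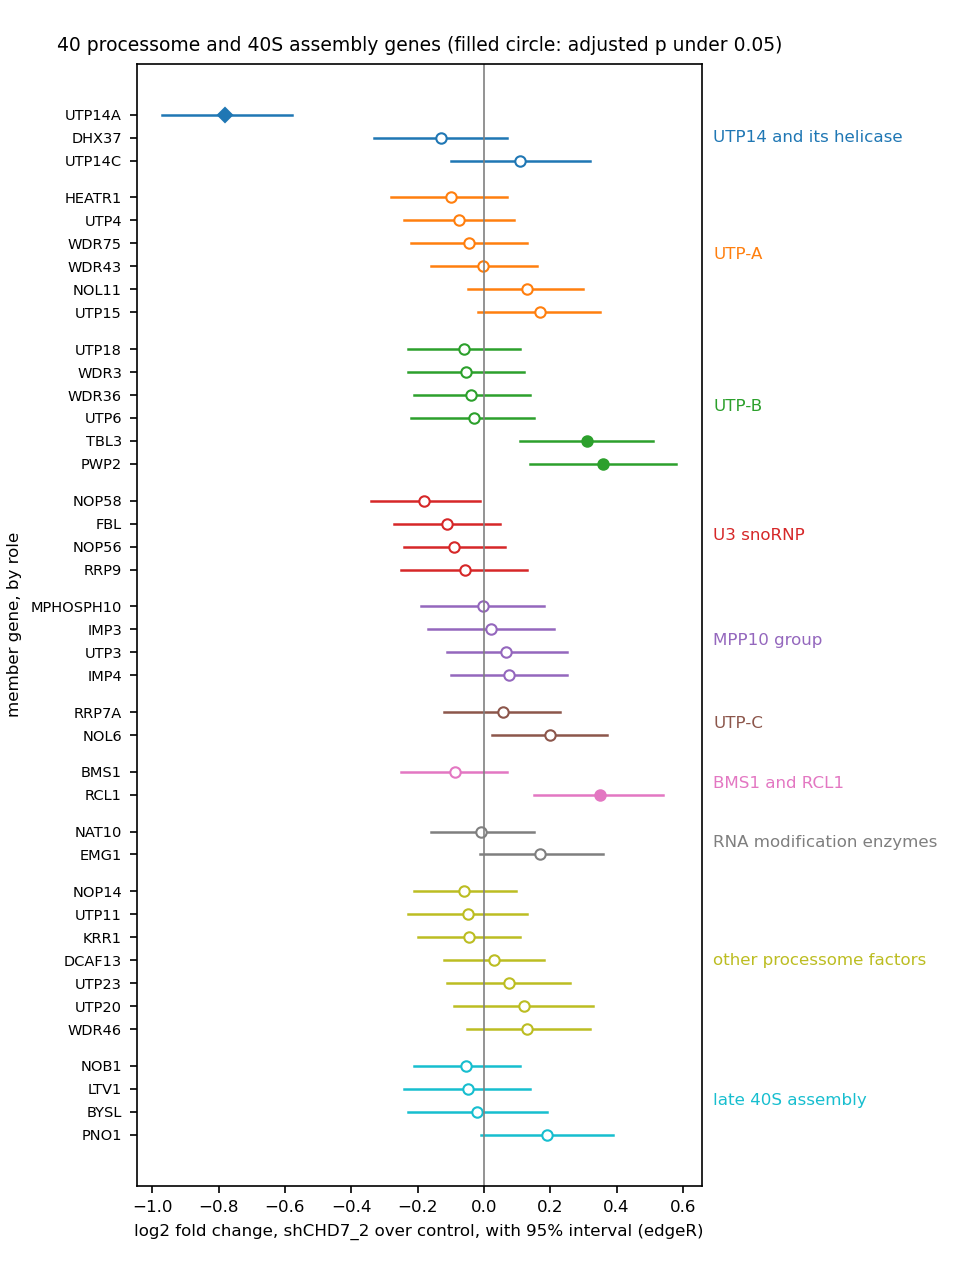
Each point is the log2 fold change of 1 of the 40 members in shCHD7_2 over control samples, with its 95% interval from edgeR, grouped and coloured by role. Filled circles have an adjusted p under 0.05, and UTP14A, chosen for its fall, is a diamond without a test. UTP14A lies at -0.78, apart from the other 39, which lie between -0.18 and 0.36.

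The members were well expressed in RKO cells. On the FPKM scale their median level in the control samples was 31.7, against 12.6 for all genes tested, and 35 of the 40 lay above the latter. The range ran from 4.89 FPKM for UTP14C to 372.7 FPKM for FBL. UTP14A was the 9th from the lowest in the control samples and the 5th from the lowest in the shCHD7_2 samples. The lowest count of any member in any sample was 339.92, for PWP2.

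**Figure D3:**
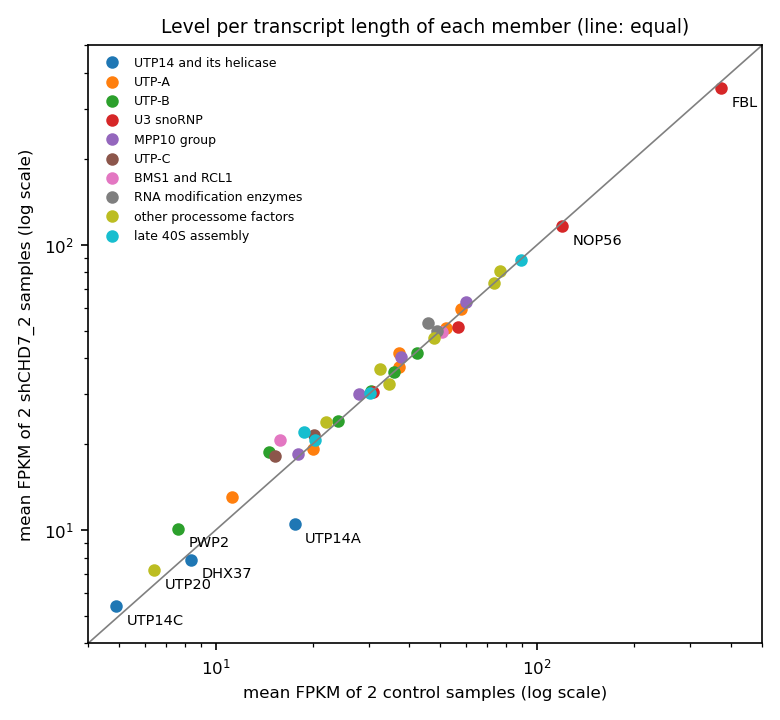
Mean FPKM of each member in the 2 control samples is plotted against that in the 2 shCHD7_2 samples, both on log axes, with the line of equal level and colours for roles. Points follow the line over the range from 4.89 to 372.7 FPKM, and UTP14A, at 17.6 against 10.5 FPKM, is the one that lies well below it.

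Among the 6 members of UTP-A, the subcomplex that binds the precursor first and is linked to transcription of rDNA, 0 passed the test. Their log2 fold changes ran from -0.10 for HEATR1 to 0.17 for UTP15, with a median of -0.024. HEATR1, a long scaffold of HEAT repeats, measured 160.5 and 177.1 CPM in the controls, against 168.3 and 146.0 CPM in the shCHD7_2 samples, and the groups overlapped. UTP15 measured 53.7 and 59.0 CPM against 66.0 and 60.7 CPM without overlap (adjusted p = 0.248 from edgeR). UTP4, the protein altered in a childhood cirrhosis, had a log2 fold change of -0.075, NOL11 of 0.13, WDR43 of -0.0028 and WDR75 of -0.045.

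UTP-B, a further early subcomplex built mainly of WD-repeat proteins, held PWP2 and TBL3, both of which rose. PWP2 measured 21.9 and 26.1 CPM in the controls, against 31.1 and 30.5 CPM in the shCHD7_2 samples (log2 fold change 0.36, SE 0.11, edgeR adjusted p = 0.0281). TBL3 measured 37.4 and 34.8 CPM against 41.8 and 47.9 CPM (log2 fold change 0.31, SE 0.097, edgeR adjusted p = 0.0376). For both genes each shCHD7_2 sample was above each control sample. The other 4 subunits did not pass the test and lay close to 0, with log2 fold changes of -0.031 for UTP6, -0.060 for UTP18, -0.053 for WDR3 and -0.038 for WDR36. Per length, PWP2 was the least abundant UTP-B mRNA in the control samples, at 7.63 ± 0.933 FPKM (SD, n = 2), and UTP18 the most abundant at 42.4 ± 0.156 FPKM (SD, n = 2).

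RCL1 and BMS1 act as a pair, in which the GTPase BMS1 brings RCL1 to the pre-rRNA for a cleavage step. RCL1 measured 32.1 and 31.8 CPM in the controls, against 39.5 and 41.7 CPM in the shCHD7_2 samples (log2 fold change 0.35, SE 0.094, edgeR adjusted p = 0.0170). BMS1 measured 207.0 and 213.3 CPM against 205.5 and 189.9 CPM (log2 fold change -0.088, edgeR adjusted p = 0.504). The partners thus lay on opposite sides of 0, RCL1 without overlap and past the test, and BMS1 without overlap and short of it.

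The calls of RCL1, PWP2 and TBL3 rested on small margins. None of the 3 passed in DESeq2 (adjusted p = 0.0837, 0.147 and 0.144), with the replicate number as a block in edgeR (0.0991, 0.0867 and 0.152), or in edgeR without a filter on low counts (0.0974, 0.170 and 0.187). Without control replicate 1 the adjusted p from edgeR was 0.104 for RCL1, 0.366 for PWP2 and 0.0811 for TBL3. Without control replicate 2 it was 0.161 for RCL1 and 0.338 for TBL3, and without shCHD7_2 replicate 2 it was 0.0775 for RCL1 and 0.272 for TBL3. Their log2 fold changes stayed positive in every setting tried, from 0.31 to 0.39 for RCL1, from 0.24 to 0.49 for PWP2 and from 0.21 to 0.40 for TBL3. The adjusted p ranged over these settings from 1.5e-05 to 0.161 for RCL1, from 5.2e-05 to 0.366 for PWP2 and from 5.8e-05 to 0.338 for TBL3 (edgeR, DESeq2 and limma), and was lowest with the replicate numbers crossed between the groups, a setting chosen after the data were seen. TBL3 overlaps exons of NOXO1 on the opposite strand, and the strand setting of the counts is not given in the sources used here, so reads of the overlapping genes cannot be told apart. Counts of PWP2 were not whole numbers, as when reads are divided between genes. Neither limit is confined to these genes. Of the 40 members, 19 had an exon overlap with another gene and 16 had one on the opposite strand. Counts that were not whole were found for 12 of the 40, PWP2 and UTP14C among them.

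The start regions of the 3 genes that rose are given in the same way as above, on the plus strand of GRCh38.p14 from RefSeq, at chr9:4792694-4792973 for RCL1, chr21:44107149-44107428 for PWP2 and chr16:1971803-1972082 for TBL3. Capitals mark CACGTG and, in PWP2, CCGGAAG.
RCL1: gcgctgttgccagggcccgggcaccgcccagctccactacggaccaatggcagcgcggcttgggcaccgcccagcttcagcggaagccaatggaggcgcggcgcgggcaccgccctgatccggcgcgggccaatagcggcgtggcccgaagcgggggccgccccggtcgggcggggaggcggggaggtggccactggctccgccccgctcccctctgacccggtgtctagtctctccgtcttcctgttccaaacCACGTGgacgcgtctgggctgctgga
PWP2: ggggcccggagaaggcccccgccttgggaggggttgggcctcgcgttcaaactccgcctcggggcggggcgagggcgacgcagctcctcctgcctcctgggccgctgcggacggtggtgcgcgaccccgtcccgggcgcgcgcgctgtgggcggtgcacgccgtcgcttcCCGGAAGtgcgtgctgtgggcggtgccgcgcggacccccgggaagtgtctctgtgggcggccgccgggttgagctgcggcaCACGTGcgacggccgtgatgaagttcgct
TBL3: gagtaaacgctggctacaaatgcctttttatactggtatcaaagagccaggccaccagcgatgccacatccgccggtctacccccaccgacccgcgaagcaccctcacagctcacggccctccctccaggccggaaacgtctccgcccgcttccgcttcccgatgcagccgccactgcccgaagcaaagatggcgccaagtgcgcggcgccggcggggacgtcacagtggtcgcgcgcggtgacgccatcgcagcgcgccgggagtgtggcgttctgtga
RCL1 and PWP2 share the E-box CACGTG with UTP14A, and TBL3 holds none of the 4 motifs searched. Whether the motif bears on the direction of change was not tested. Their G+C contents in these stretches were 73.6%, 75.7% and 66.1%, with 32, 41 and 33 CpG pairs.

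The 4 members from the U3 snoRNP all had values below 0, although 0 of the 4 passed the test. Without shCHD7_2 replicate 1 only 3 of them were below 0 (RRP9 turned). SNU13, a further protein of this particle counted here with the other 40S assembly factors, had a log2 fold change of -0.15 (edgeR adjusted p = 0.255). NOP58, which with NOP56 forms the scaffold of box C/D particles, measured 107.4 and 109.0 CPM in the controls, against 94.8 and 96.5 CPM in the shCHD7_2 samples. The groups were separate and their samples close together, but the log2 fold change of -0.18 (standard error 0.080, 95% interval -0.34 to -0.012) had an adjusted p of 0.162 in edgeR. FBL, the methyltransferase of these particles, measured 311.8 and 287.7 CPM against 262.5 and 292.1 CPM (log2 fold change -0.11, edgeR adjusted p = 0.389). NOP56 was at -0.090 and RRP9, the subunit particular to U3, at -0.056. The group was the most abundant per length, with a median control level of 88.3 FPKM and 372.7 ± 21.6 FPKM (SD, n = 2) for FBL.

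The MPP10 group bridges U3 and the other subcomplexes, and UTP3 is placed with it here. Its 4 members showed little difference, with log2 fold changes of -0.0039 for MPHOSPH10, 0.022 for IMP3, 0.068 for UTP3 and 0.075 for IMP4. In UTP-C, NOL6 measured 75.3 and 71.3 CPM in the controls, against 86.1 and 82.2 CPM in the shCHD7_2 samples. Its log2 fold change of 0.20 (standard error 0.084, 95% interval 0.025 to 0.37) did not pass after adjustment (adjusted p = 0.136 from edgeR), and its partner RRP7A was at 0.057. Of the enzymes that modify 18S rRNA, the acetyltransferase NAT10 was at -0.0086 and the methyltransferase EMG1 at 0.17 (adjusted p = 0.962 and 0.236 from edgeR).

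The 7 other processome factors had log2 fold changes from -0.059 for NOP14 to 0.13 for WDR46, and 0 passed the test. They include UTP20 at 0.12, UTP23 at 0.076, DCAF13 at 0.031, KRR1 at -0.046 and UTP11 at -0.048. UTP20, a very long scaffold with 62 exons, varied widely within groups, from 53.0 to 63.0 CPM in the controls and from 56.7 to 69.5 CPM in the shCHD7_2 samples.

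Late 40S assembly factors leave the nucleolus with the precursor. PNO1, the partner of the nuclease NOB1, measured 43.5 and 37.2 CPM in the controls, against 46.8 and 45.2 CPM in the shCHD7_2 samples (log2 fold change 0.19, SE 0.096, 95% interval -0.0090 to 0.39, edgeR adjusted p = 0.220). Without control replicate 2 its value was 0.079. NOB1, which makes the last cut at the end of 18S rRNA, was at -0.053, the export factor LTV1 at -0.048 and BYSL at -0.021.

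**Figure D4:**
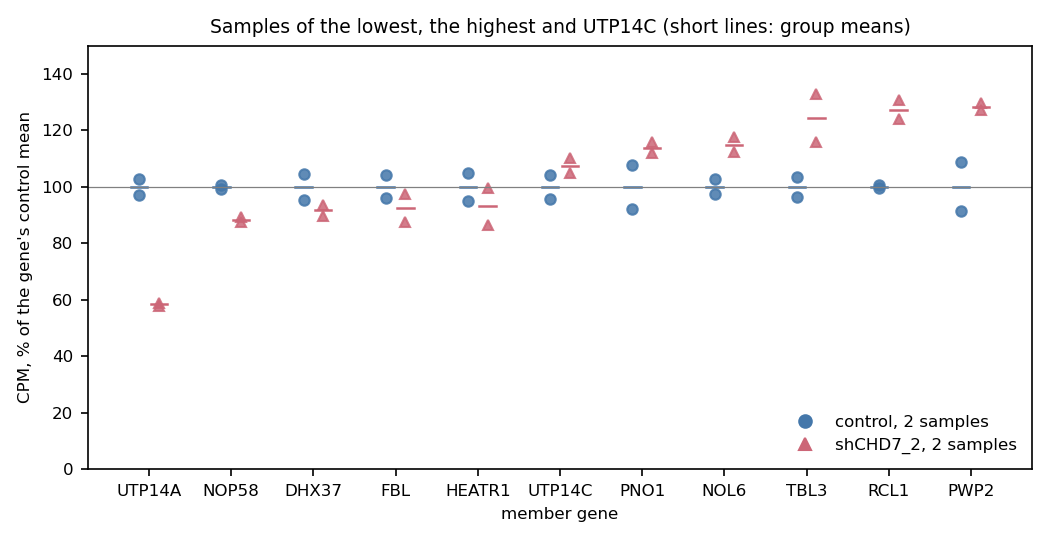
CPM of each of the 4 samples is drawn as a percentage of the gene's control mean for the 5 lowest members by log2 fold change, UTP14C and the 5 highest (circles, control; triangles, shCHD7_2; short lines, group means of 2 samples). UTP14A is at 58.4% of its control mean, NOP58, the next lowest, at 88.4%, and PWP2, the highest, at 128.2%.

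Genes of ribosome assembly outside the processome were counted in 4 further lists, and 0 of their genes were called with a fold change of at least 1.5. Of 31 other 40S assembly factors, 1 was higher and 1 lower at an adjusted p under 0.05 (6.45%, median log2 fold change 0.052). RIOK1, a kinase of late 40S maturation, fell from 41.4 ± 4.70 CPM (SD, n = 2) to 32.1 ± 0.421 CPM (SD, n = 2) (log2 fold change -0.37, edgeR adjusted p = 0.0167). DDX49, a helicase, rose by 0.32 (adjusted p = 0.0442 from edgeR). These 2 genes moved in opposite directions.

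Of 50 assembly factors of the 60S subunit, 1 was higher and 3 were lower (8.0%, median log2 fold change -0.029). TEX10, a subunit of a complex that acts on pre-60S particles, rose from 202.0 ± 13.8 CPM (SD, n = 2) to 269.6 ± 16.8 CPM (SD, n = 2) (log2 fold change 0.42, edgeR adjusted p = 9.2e-04). The ATPase NVL fell by 0.44 on the log2 scale (adjusted p = 0.00343 from edgeR), RPF2, which helps place 5S rRNA, by 0.35 (edgeR adjusted p = 0.00768), and EBNA1BP2 by 0.28 (edgeR adjusted p = 0.0279). Among 21 RNA polymerase I and nucleolar factors, 0 were higher and 1 was lower (4.76%, median -0.085), the RNA helicase DDX21 with 407.6 ± 18.8 (SD, n = 2) against 334.6 ± 29.5 (SD, n = 2) CPM and a log2 fold change of -0.28 (adjusted p = 0.0167 from edgeR). Among 13 snoRNP assembly and H/ACA proteins, 1 was higher and 0 were lower (7.69%, median -0.0069), the H/ACA assembly factor SHQ1 with a log2 fold change of 0.40 (adjusted p = 0.00924 from edgeR). Each of these counts was 0 in at least 1 of the settings tried. They also rose in others, for the other 40S assembly factors from 2 to 5 with library totals (4 higher, 1 lower), to 5 in limma with the filter (all higher) and to 14 with the replicate numbers crossed, and for the 60S factors from 4 to 15 in the last of these. No difference between a list and all genes was tested.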

How the data were processed

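RNA-seq of 2 control and 2 shCHD7_2 samples was used. The authors deposited expected counts per gene, which they had not normalized, and FPKM values for the same genes. Per the labels' processing notes the submitters used Bowtie2, RSEM and DESeq2 with hg38, and versions and annotation are not given in the sources used here. Expected counts were rounded and filtered with filterByExpr, and TMM factors were computed for the libraries. The 11955 genes left were compared by the quasi-likelihood method of edgeR 4.0.16 in R 4.3.3, with Benjamini-Hochberg adjustment over all of them. Standard errors and 95% intervals came from its F statistic. Called genes had a fold change of 1.5 or more besides an adjusted p under 0.05. With 2 samples against 2, the smallest two-sided permutation p is 0.333. Nothing in the labels says that samples came from separate cultures, so p-values measure the spread between these samples, which may be technical. The counts of replicates differed by more than sampling noise (chi-square per gene of 3.94 and 6.05).

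The members and the lists were chosen with earlier results of these data known. Per-sample values were given for UTP14A, UTP14C, members past an adjusted p of 0.05 and the 5 highest and 5 lowest, and genes of the other lists were named where they passed. UTP15, BMS1 and UTP20 were added after their values were seen. Alternatives were DESeq2 1.42.0, its size factors or library totals in edgeR, other filters (none, or 1 CPM in at least 2 samples), a replicate block, limma 3.58.1 on log2(FPKM + 1) or log2(FPKM + 0.1), and each sample left out in turn. On simulated counts for the same comparison (11874 genes), edgeR recovered 90.9% of genes changed by 0.58 on the log2 scale, and 7 unchanged genes passed. Every simulated gene had the same relative spread between replicates, unlike genes in these libraries, so recovery here may be lower. Positions came from GENCODE 29 and promoters from RefSeq (GRCh38.p14).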

Additional observations from a re-analysis of the deposited data

How the results depend on the processing

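Calls were counted for the 39 members without UTP14A, and 0 of these 39 were called with a fold change of at least 1.5 in any of the 14 alternatives. No log2 fold change of CHD7, UTP14A, UTP14C or the 9 other members with per-sample values chosen by the rule changed sign. Of the other 39, 1 member changed sign with DESeq2 size factors or in DESeq2 (WDR43), 6 with library totals (BYSL, MPHOSPH10, NAT10, UTP6, WDR36 and WDR43), 7 in limma (these and WDR75) and 0 to 11 with a sample left out, and none of these had passed the test. The number of the other 39 members past an adjusted p under 0.05, 3 in edgeR, was 0 in DESeq2, 0 without a filter on low counts, 0 in limma on log2(FPKM + 1) without a filter and 0 to 3 when each sample was left out, where the lone sample of an arm is assumed to vary like the others. Their median moved from -0.0086 to 0.035 with library totals, to 0.034 and 0.035 in limma with pseudocounts of 1 and 0.1, to 0.034 in limma without a filter, and to between -0.055 and 0.048 with a sample left out. The median of all genes shifted by at most 0.045.

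Over all genes tested, 1373 passed the adjusted p, and the number was 800 in DESeq2, 197 without a filter, 8 in limma without a filter and 610 to 1702 with a sample left out. The 344 genes called with the fold change became 221 in DESeq2, 141 without a filter, 172 in limma with the filter and 8 without it, and 308 to 380 with a sample left out. CHD7 missed the adjusted p threshold only in limma without a filter (log2 fold change -0.51, adjusted p = 0.127, with a range over settings from 9.8e-34 in edgeR to this value in limma).

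The groups share replicate numbers, but deviations of same-numbered samples correlated at -0.198 over the genes tested, so the numbers did not pair the samples. With the replicate number as a block, 0 of the 39 members and 755 of all genes passed, with 329 called. With the pairing crossed, chosen after seeing the data, 8 members (7 higher, 1 lower), among them NOL6, PNO1 and NOP58, and 3751 genes passed, with 423 called.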

Other observations

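Within each group the members differed between replicates in a way that crossed the replicate numbers. Deviations from the group mean in samples of the same number correlated at -0.585 over the 40 members, and 30 of the 40 were opposite in sign. UTP20 was higher by 0.25 (log2 CPM) in control replicate 2 than in replicate 1 and higher by 0.29 in shCHD7_2 replicate 1 than in replicate 2, while IMP3 was lower by 0.16 and 0.18 in the same contrasts. Over 39 members, which share the 4 libraries, the mean of these differences had a Spearman correlation of -0.765 with the G+C content of the transcript and 0.511 with its length. The log2 fold change between the groups had one of 0.0336 with G+C content and 0.147 with length. The part of this pattern in the members' fold changes was not tested further.

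The 7-base word AGCTATT and 2 more that overlap it, which were chosen on these same samples for their frequency in 3′ UTRs of genes that fell, were looked up in the members. At least 1 was present in 7 of the 39 members other than UTP14A (17.9%), against 22.1% of 11692 genes tested and 68.6% of 159 genes called lower. The 7 had a median log2 fold change of -0.053 and the other 32 a median of 0.0088. The 3′ UTR of UTP14A, of 153 bases, held none of the words.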
